A study of Mus musculus with 5 samples.

Results

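Cadherins and protocadherins are cell-surface proteins whose extracellular repeats bind calcium and hold neighbouring cells together. Classical cadherins bind through their outermost repeat and link to actin through catenins, and in the cortex they hold the ventricular surface together and mark areas and groups of neurons. Protocadherins lack the catenin-binding tail, and the clustered ones are expressed in combinations that give neurons distinct surfaces.

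The genes described are the rows of the deposited counts named Cdh followed by a number, or Pcdh followed by anything, without the endothelial Cdh5. They came to 59 of 34590 gene rows, 34 of them cadherins and non-clustered protocadherins and 25 clustered protocadherins (2 Pcdha, 22 Pcdhb and 1 Pcdhg). Gene expression was measured by RNA sequencing of polyadenylated RNA in 3 libraries of medial cortex and 2 of lateral cortex, dissected at stage E14.5 from brains of wild-type mouse embryos. All libraries share a mixed strain background and received no treatment. Whether the replicates are different embryos is not stated in the labels, and the spread that the p-values measure may therefore be technical.

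Depth differed with region: reads given to genes ranged from 27406370 to 36460274 in medial and from 56147129 to 66981952 in lateral libraries. Levels below are CPM (reads scaled to a common library total) after TMM scaling for composition, in the order medial libraries 1, 2 and 3, then lateral libraries 1 and 2. A floor of 3 reads corresponded to between 0.0456 and 0.105 CPM, for counting error only. The cortical marker Emx1 was present in every library, at 68.3 to 116 CPM. With it, 7 cortex genes summed to between 1010 and 1528 CPM in medial and between 1973 and 2160 CPM in lateral libraries. Of these 7, 1 was higher in medial cortex (Emx2) and 1 was lower (Tbr1). Several other marker lists moved with region. The 6 neuronal genes summed to between 923 and 1424 CPM in medial and between 1868 and 2428 CPM in lateral libraries (4 of 6 lower in medial). The 9 GABAergic genes summed to between 55.4 and 82.1 against between 126 and 145 CPM (6 of 9 lower). Radial glia genes summed to between 2726 and 3397 CPM in medial and between 1815 and 2108 CPM in lateral libraries (2 of 7 higher), cell division genes to between 2546 and 3203 against between 1670 and 1960 CPM (3 of 8 higher), Cajal-Retzius genes to between 499 and 606 against between 156 and 194 CPM (6 of 6 higher) and cortical hem genes to between 115 and 332 against between 5.42 and 6.32 CPM (8 of 8 higher). Choroid plexus sums overlapped, between 9.16 and 18.2 CPM in medial and between 2.54 and 12.5 CPM in lateral libraries, with Kcnj13 at or near 0. Of 5 tested, 1 was higher, Otx2 (12.8, 3.70 and 3.00 against 0.106 and 0.241 CPM), while Ttr overlapped between the groups. The 4 thalamic genes summed to between 57.8 and 77.8 CPM in medial and between 8.32 and 16.9 CPM in lateral libraries (1 of 2 tested higher). Most of that sum was Lhx9 (61.2, 70.7 and 50.8 against 10.8 and 3.68 CPM), while Tcf7l2 overlapped between the groups and Gbx2 was at or near 0. Medial library 1 stood apart from the others. It held the lowest neuronal sum and the highest hem sum, and 8 genes of mesenchyme and meninges summed to 306 CPM in it, against between 24.4 and 36.6 CPM elsewhere. The part of any of these markers in the results was not tested, and in bulk tissue fewer cells of a type and less RNA per cell cannot be told apart.

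Of 52 members that passed the low-count filter, 7 changed at an adjusted p under 0.05 in edgeR. Of 28 tested cadherins and non-clustered protocadherins, 3 were higher in medial cortex (Cdh23, Pcdh15 and Cdh9) and 4 were lower (Cdh12, Cdh8, Pcdh10 and Pcdh8). None of the 24 tested clustered protocadherins passed; 2 had an unadjusted p under 0.05, as did 32.2% of all genes tested, and 2 passed in DESeq2, as did 21.7%. Over all 16229 genes tested, 9.72% passed, 4.62% higher and 5.10% lower in medial cortex, which compares with 13.5% of the tested members and 25% of the non-clustered ones. Medial and lateral libraries did not overlap for 24 of the 52, 3 with medial above and 21 with lateral above, while 53.3% of all genes tested did not overlap (26.5% with medial above and 26.7% with lateral above). The median log2 fold change of the tested members, medial over lateral, was −0.29, and that of all genes tested was 0.01.

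Fewer genes of any kind passed in edgeR without any one library other than medial library 1. The 7 members kept their direction in every such fit, but their groups did not overlap, so dropping a library could hardly turn it. Their log2 fold changes then ranged from 2.56 to 3.63 for Cdh23, from 1.41 to 1.86 for Pcdh15, from 1.31 to 1.66 for Cdh9, from −2.98 to −2.23 for Cdh8, from −3.54 to −2.32 for Cdh12, from −1.76 to −1.27 for Pcdh10 and from −1.31 to −0.91 for Pcdh8. Without medial library 2, 0 members passed, as did 0% of all genes, with 16 members at an unadjusted p under 0.05 (24.5% of all genes) and 12 passing in DESeq2 (12.7%). Without lateral library 1, 0 members and 0.108% of all genes passed, with 17 members at an unadjusted p under 0.05 (24.4%) and 13 passing in DESeq2 (14.8%). Without lateral library 2, 0 members and 0% of all genes passed, with 12 members at an unadjusted p under 0.05 (14.9%) and 5 passing in DESeq2 (4.54%). DESeq2 called 6, 6 and 5 of the 7 members in these 3 fits. Without medial library 3 the members that passed in edgeR were Cdh8, Cdh23 and Pcdh15, where 3.01% of all genes passed. Without medial library 1 all 7 passed and 15 members in all, 6 higher and 9 lower, where 13.2% of all genes passed (6.26% higher and 6.94% lower). In a fit blocked by a tag in the deposited names, with medial library 1 dropped, 23 members passed, where 32.6% of all genes did.

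**Figure D1:**
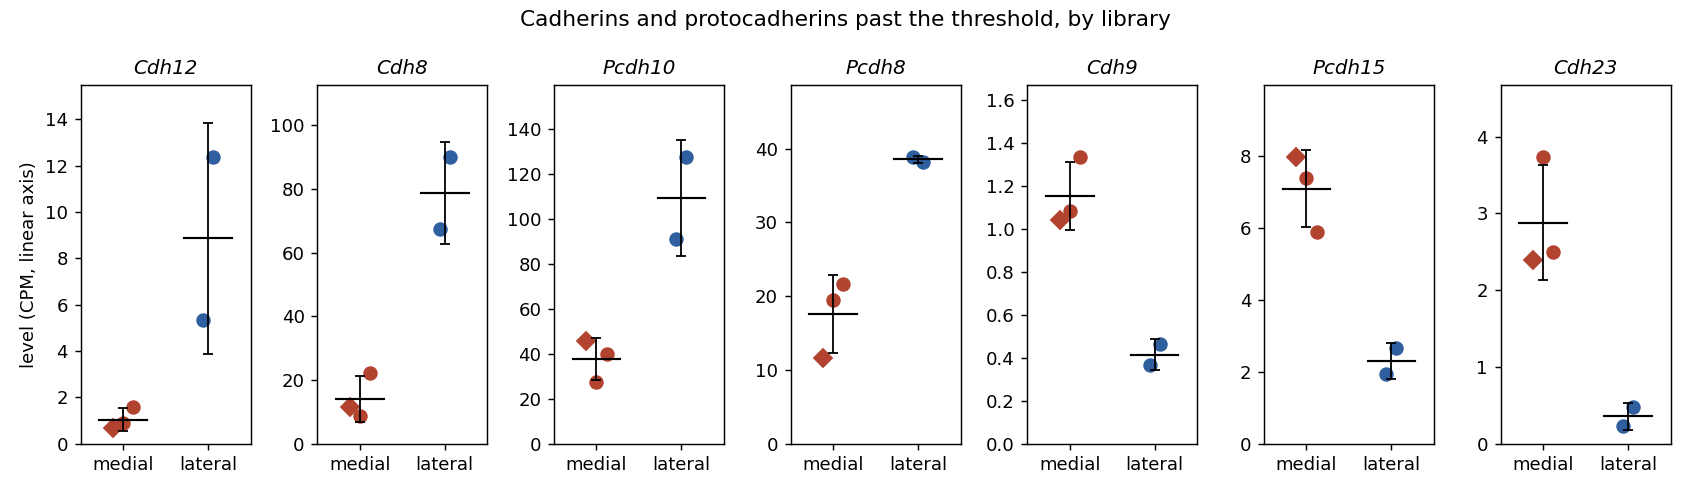
Level in CPM on linear axes of the 7 members that passed, with a point for each of 3 medial and 2 lateral libraries, the group mean as a line and the SD as a bar; the diamond is medial library 1. Every medial point of Cdh12, Cdh8, Pcdh10 and Pcdh8 lies below both lateral points, and every medial point of Cdh9, Pcdh15 and Cdh23 lies above them.

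The sequences upstream of 4 of these genes are shown so that the members that moved in each direction can be compared: the pair with the lowest adjusted p among those higher in medial cortex (Cdh23 and Pcdh15) and among those lower (Cdh8 and Pcdh10). Each runs from 250 bases before to 50 bases after the annotated start, from RefSeq on build GRCm38.p6, which is not the build of the counts; the start used in cortex was not measured. Capitals mark E-boxes, the core CANNTG to which proneural factors of the basic helix-loop-helix class bind; this core reads the same on both strands.
Cdh23, chr10:60696441-60696740, minus strand: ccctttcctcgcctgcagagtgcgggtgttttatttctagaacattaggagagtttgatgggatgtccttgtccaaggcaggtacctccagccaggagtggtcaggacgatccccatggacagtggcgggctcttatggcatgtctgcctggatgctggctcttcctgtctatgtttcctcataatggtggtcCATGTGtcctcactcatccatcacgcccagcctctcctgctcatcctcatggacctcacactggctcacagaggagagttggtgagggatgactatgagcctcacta
Pcdh15, chr10:73821617-73821916, plus strand: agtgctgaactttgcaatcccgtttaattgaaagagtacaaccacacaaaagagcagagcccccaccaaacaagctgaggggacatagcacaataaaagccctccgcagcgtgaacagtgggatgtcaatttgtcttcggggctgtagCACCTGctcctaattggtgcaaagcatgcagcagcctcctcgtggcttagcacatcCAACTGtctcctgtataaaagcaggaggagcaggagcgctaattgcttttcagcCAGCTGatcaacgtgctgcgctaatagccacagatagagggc
Cdh8, chr8:99416422-99416721, minus strand: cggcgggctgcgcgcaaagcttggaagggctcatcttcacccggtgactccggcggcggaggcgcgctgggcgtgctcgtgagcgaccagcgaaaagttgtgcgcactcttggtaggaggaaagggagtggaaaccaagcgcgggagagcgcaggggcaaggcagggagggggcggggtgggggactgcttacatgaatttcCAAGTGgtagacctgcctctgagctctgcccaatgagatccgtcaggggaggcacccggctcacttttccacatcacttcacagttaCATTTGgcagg
Pcdh10, chr3:45378148-45378447, plus strand: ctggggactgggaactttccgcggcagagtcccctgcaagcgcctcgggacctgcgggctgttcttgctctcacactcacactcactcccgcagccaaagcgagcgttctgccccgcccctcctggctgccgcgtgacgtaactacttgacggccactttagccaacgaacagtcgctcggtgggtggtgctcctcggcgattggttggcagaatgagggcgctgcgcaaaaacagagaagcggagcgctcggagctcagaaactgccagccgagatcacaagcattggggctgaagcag

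The windows differed in base composition, and their GC contents overlapped between the directions. Among the members higher in medial cortex, Cdh23, Pcdh15 and Cdh9 held 5, 8 and 8 CG dinucleotides at a GC content of 54.0%, 50.7% and 48.7%. Among those lower, Cdh8, Pcdh10, Pcdh8 and Cdh12 held 21, 24, 14 and 9 at 62.3%, 62.3%, 54.3% and 46.7%. The medians over 32817 promoters were 7 CG dinucleotides and 52.7%. Of the 7 members that passed, all had a promoter in the table, and 5 of these held at least 1 E-box, as did 72.3% of all promoters. The homeodomain core TAATTA (in 5.3% of promoters) and the TCF/LEF core CTTTGA or its complement TCAAAG (in 16.0%) were in none of the 7 windows, and no base lay in more than 1 of the motifs searched. These matches describe letters in a window and say nothing of binding.

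Per length of exon, Cdh2 led both regions. The order given is among the 28 tested cadherins and non-clustered protocadherins, since the exons behind the Pcdhga9 reads are not known. Levels per kilobase of merged exons in GENCODE M21, an annotation of another build than the counts, are used here only to order genes. Cdh2 averaged 69.1 ± 3.02 CPM per kb over the 3 medial libraries and 73.5 ± 6.79 CPM per kb over the 2 lateral ones (mean ± SD). In medial cortex it was followed by Pcdh19 at 10.2 ± 2.69 CPM per kb, Cdh24 at 7.99 ± 0.843 and Pcdh18 at 7.77 ± 1.73 (SD, n = 3 each), 3 neighbours that did not differ beyond their spread. In lateral cortex it was followed by Cdh4 at 13.2 ± 8.52 CPM per kb, Pcdh18 at 12.6 ± 0.495 and Cdh13 at 11.4 ± 3.89 (SD, n = 2 each), again within their spread. Cdh8 stood at place 14 of 28 in medial and at place 5 in lateral cortex, with 1.81 ± 0.922 (SD, n = 3) against 10.2 ± 2.07 CPM per kb (SD, n = 2). The lowest places in medial cortex went to Cdh12, Cdh17 and Cdh18, and in lateral cortex to Pcdh15, Cdh17 and Cdh23.

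**Figure D2:**
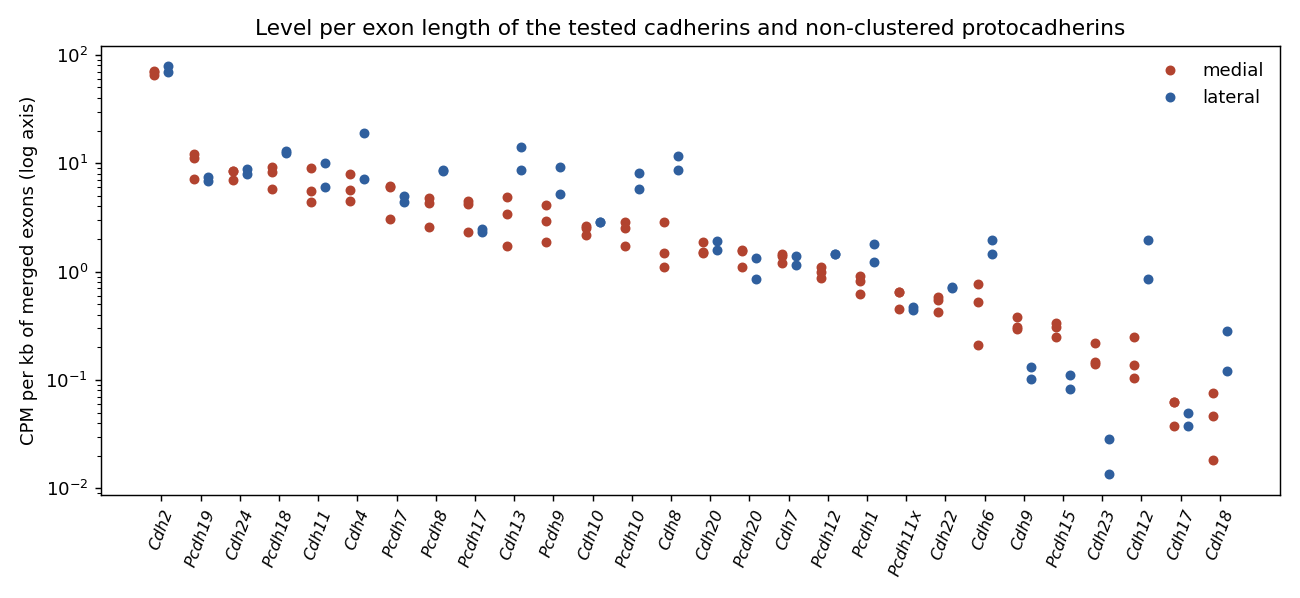
Level in CPM per kb of merged exons, on a log axis, of the 28 tested cadherins and non-clustered protocadherins, ordered by the medial mean, with a point for each medial (left) and lateral (right) library. Cdh2, at 69.1 CPM per kb in medial and 73.5 in lateral cortex, lies above the other 27 in both regions.

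Type I classical cadherins, which bind like with like at adherens junctions, gave 0 calls among 2 tested. Cdh4 had an unadjusted p under 0.05, as did 32.2% of all genes tested. It passed in DESeq2, as did 21.7%. Cdh2, the N-cadherin of neural progenitors and neurons, had 577, 530 and 565 CPM in medial and 554 and 632 CPM in lateral libraries. The groups overlapped, and the log2 fold change was −0.09 (SE 0.10, adjusted p = 0.567). Cdh4, the R-cadherin of retina and brain, had 57.7, 32.4 and 41.3 CPM in medial against 51.7 and 139 CPM in lateral libraries. Lateral library 2 was high and lateral library 1 lay within the medial range, and the log2 fold change, −1.12 (SE 0.43, adjusted p = 0.137), was −0.24 without lateral library 2. The epithelial E-cadherin Cdh1 (16, 2 and 3 medial and 2 and 7 lateral reads), the P-cadherin Cdh3 and the muscle cadherin Cdh15 were left out by the filter, with at most 9 reads per library in the last pair.

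Type II classical cadherins differ from type I in the pocket of their outermost repeat and mark subsets of neurons. Of 12, 11 were tested, 1 was higher (Cdh9), 2 were lower (Cdh8 and Cdh12) and 8 did not pass. Of all genes tested, 4.62% were higher and 5.10% lower in medial cortex. Cdh8, which marks cortical areas and layers in the mouse, had 11.4, 8.56 and 22.1 CPM in medial and 67.5 and 90.1 CPM in lateral libraries. All lateral values were over every medial one. The level was 5.58-fold lower in medial cortex, on the log2 scale −2.48 (SE 0.38, adjusted p = 0.0315). Cdh12, a brain type II cadherin, had 0.659, 0.874 and 1.58 CPM in medial and 5.33 and 12.4 CPM in lateral libraries. Both lateral libraries were high and differed from each other, and Cdh12 was 8.24-fold lower in medial cortex, on the log2 scale −3.04 (SE 0.50, adjusted p = 0.0316) and −2.32 without lateral library 2.

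In the opposite direction, Cdh9, which in the hippocampus takes part in synapse formation between dentate and CA3 neurons, had 1.04, 1.08 and 1.33 CPM in medial and 0.365 and 0.464 CPM in lateral libraries. These groups did not overlap, and the level was 2.82-fold higher in medial cortex (log2 fold change 1.49, SE 0.29, adjusted p = 0.0375), on 109 medial and 49 lateral reads. Cdh6, an early marker of cortical areas, had 1.91, 4.72 and 6.87 CPM in medial and 13.2 and 17.5 CPM in lateral libraries. Its groups were apart as well, but the log2 fold change of −1.75 (SE 0.44) did not pass (adjusted p = 0.0568). Without medial library 1, which was the lowest, Cdh6 passed at −1.39.

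Cdh18 and Cdh22, named after their values were seen, had log2 fold changes of −2.13 (SE 0.64, adjusted p = 0.0838) and −0.46 (SE 0.21, adjusted p = 0.197), and that of Cdh18 was −1.41 without lateral library 2. For both, each lateral library was above each medial one, at no more than 1.30 and 2.65 CPM. Cdh18 rested on 10, 6 and 3 medial and 36 and 70 lateral reads, with medial library 3 at the floor of 3 reads. The abundant Cdh10 (21.8 to 26.4 medial and 28.9 to 29.0 CPM lateral), Cdh24 (24.5 to 29.7 and 27.7 to 30.8 CPM), Cdh7 (11.9 to 14.4 and 11.5 to 13.9 CPM) and Cdh20 (5.98 to 7.53 and 6.29 to 7.63 CPM) had log2 fold changes between −0.24 and 0.08. Cdh11, a cadherin of mesenchyme and of neurons, had 80.0, 39.0 and 49.0 CPM in medial and 53.4 and 89.1 CPM in lateral libraries. The groups overlapped (log2 fold change −0.35, SE 0.35, adjusted p = 0.536), and its highest medial value was in medial library 1, where the mesenchyme and meninges list was also highest. Cdh19, the remaining type II member, had at most 3 reads in any library and was not tested.

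**Figure D3:**
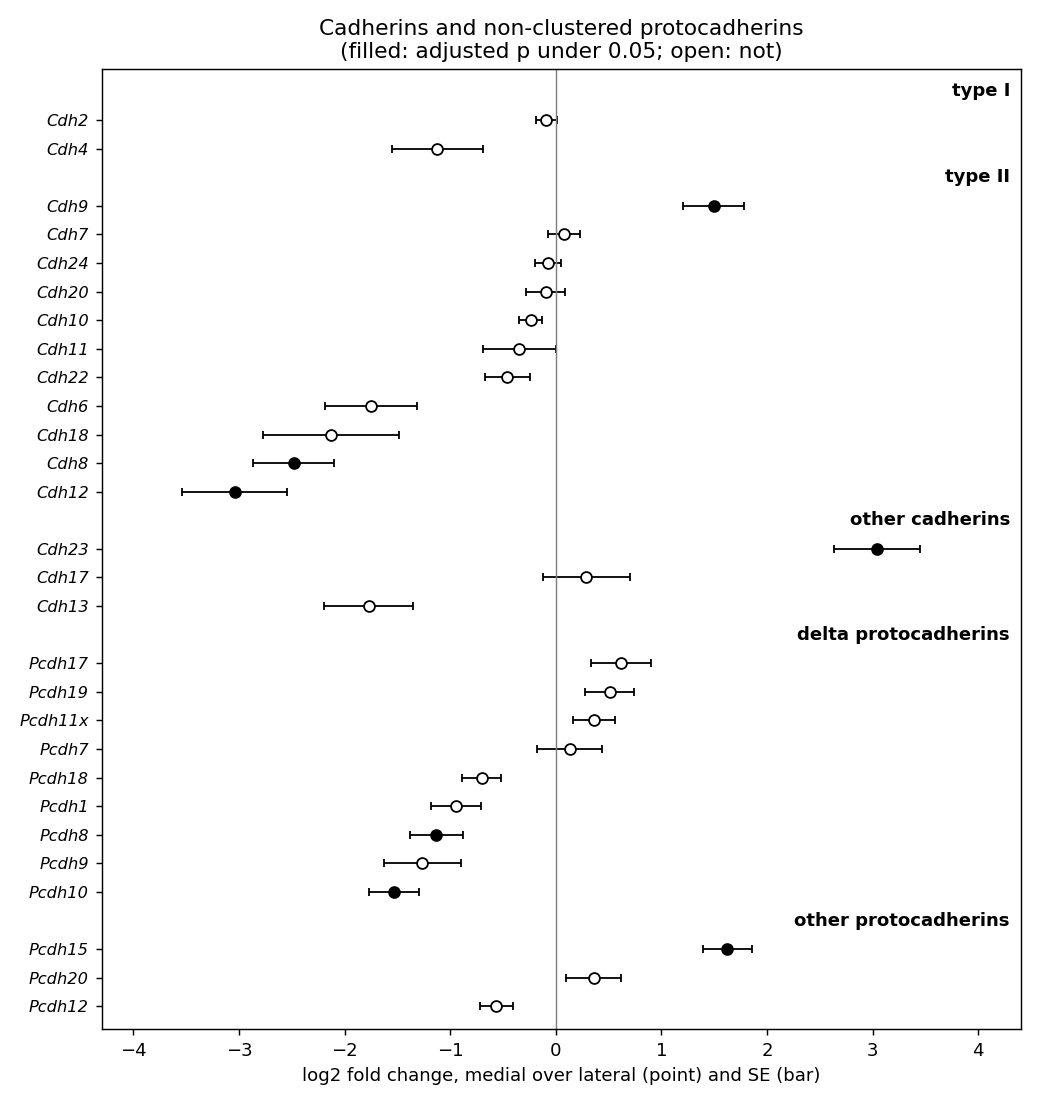
Log2 fold change, medial over lateral, with its SE as a bar, for the 28 tested cadherins and non-clustered protocadherins, grouped by subfamily; filled points passed an adjusted p of 0.05. Type II cadherins span from −3.04 (Cdh12) to 1.49 (Cdh9), and Cdh23 at 3.04 is at the far right.

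Cdh23 and Pcdh15, which bind each other in the tip link of inner-ear hair cells, were both higher in medial cortex. Cdh23 had 2.39, 3.74 and 2.5 CPM in medial and 0.228 and 0.483 CPM in lateral libraries. Every medial library exceeded both lateral ones, and the level was 8.23-fold higher (log2 fold change 3.04, SE 0.40, adjusted p = 0.0296), on 266 medial and 41 lateral reads. Lateral library 1 was the lowest, and without lateral library 2 the log2 fold change was 3.63. Pcdh15 had 7.98, 7.37 and 5.89 CPM in medial and 1.95 and 2.65 CPM in lateral libraries, again with no overlap. It was 3.08-fold higher in medial cortex (log2 fold change 1.62, SE 0.23, adjusted p = 0.0296).

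Cdh13, the membrane-anchored T-cadherin that lacks a cytoplasmic tail, had 19.5, 38.4 and 54.7 CPM in medial and 97.6 and 159 CPM in lateral libraries. Lateral values were the higher in every pair, but the log2 fold change of −1.77 (SE 0.42) missed the threshold (adjusted p = 0.0523). Without medial library 1, the lowest, Cdh13 passed at −1.46. Cdh17, an intestinal cadherin named after its values were seen, had between 0.167 and 0.280 CPM in every library (adjusted p = 0.669). The kidney cadherin Cdh16 and Cdh26 had at most 3 reads per library and were not tested.

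Delta protocadherins are named for conserved motifs in their cytoplasmic tails. All 9 were tested, and Pcdh10 and Pcdh8 were lower in medial cortex, as were 5.10% of all genes tested, while 7 did not pass. Pcdh10, which guides axons and recruits actin regulators, had 45.9, 27.6 and 39.8 CPM in medial and 91.3 and 128 CPM in lateral libraries. The groups were apart, and it was 2.90-fold lower (log2 fold change −1.54, SE 0.24, adjusted p = 0.0315). Pcdh8, an activity-induced protocadherin that in rat neurons takes N-cadherin off synapses, had 11.6, 19.5 and 21.6 CPM in medial and 38.9 and 38.2 CPM in lateral libraries. The lateral pair was close together and above all medial values, and Pcdh8 was 2.19-fold lower (log2 fold change −1.13, SE 0.25, adjusted p = 0.0467).

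A further 3 delta protocadherins had lateral levels above every medial one without passing. Of all genes tested, 26.7% had lateral above in this way. Pcdh9 had 12.6, 20.0 and 28.2 CPM in medial and 35.5 and 62.2 CPM in lateral libraries (log2 fold change −1.26, SE 0.37, adjusted p = 0.0759). Pcdh1 had 5.48, 7.17 and 8.03 against 10.8 and 15.9 CPM (−0.95, SE 0.24, adjusted p = 0.0565). Pcdh18 had 31.3, 49.2 and 44.5 against 66.0 and 69.8 CPM (−0.70, SE 0.19, adjusted p = 0.0639) and passed without medial library 1, at −0.53. Medial library 1 held the lowest level of all libraries in each of these 3 genes, as it did in 31.7% of all genes tested.

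The other delta protocadherins had positive log2 fold changes that did not pass, and in medial library 1 they lay near or below the lateral levels. Pcdh19, a partner of N-cadherin in cell sorting whose gene is linked to epilepsy in humans, had 74.4, 128 and 117 CPM in medial and 78.3 and 71.2 CPM in lateral libraries. Medial libraries 2 and 3 were high and medial library 1 lay among the lateral values, and the log2 fold change was 0.51 (SE 0.23, adjusted p = 0.188). Pcdh17, which sorts axons and synapses in corticobasal circuits, had 30.1, 58.6 and 54.9 against 32.1 and 30.3 CPM (0.62, SE 0.28, adjusted p = 0.191). Pcdh7 had 32.1, 65.2 and 64.6 against 52.5 and 46.0 CPM (0.13, SE 0.31, adjusted p = 0.804). Without medial library 1 these 3 genes passed as higher in medial cortex, at log2 fold changes of 0.71 for Pcdh19, 0.87 for Pcdh17 and 0.40 for Pcdh7. Pcdh11x, an X-linked delta protocadherin, had 6.35, 9.09 and 9.04 against 6.55 and 6.18 CPM (0.36, SE 0.20, adjusted p = 0.272) and did not pass in that fit either.

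Beyond the delta family, Pcdh12, a protocadherin of endothelium, had 6.66, 5.31 and 5.95 CPM in medial and 8.81 and 8.85 CPM in lateral libraries. The groups did not overlap (log2 fold change −0.56, SE 0.15, adjusted p = 0.0679), and it passed without medial library 1, at −0.65. Beside it, 8 endothelial genes summed to between 83.4 and 97.4 CPM in medial and between 109 and 124 CPM in lateral libraries, with 0 of 8 passing in edgeR. In DESeq2, where 21.7% of all genes passed, Flt1, Tie1, Cldn5, Tek and Pecam1 passed as lower in medial cortex, while Kdr, Esam and Emcn did not pass. Cdh5, the endothelial cadherin that is not counted among the members, was lower in medial cortex, with 12.2, 11.7 and 12.2 against 17.5 and 18.6 CPM (log2 fold change −0.58, SE 0.11, adjusted p = 0.0368). Their part in the Pcdh12 values was not tested. Pcdh20 had 6.03, 8.63 and 8.51 against 7.29 and 4.71 CPM (0.36, SE 0.26, adjusted p = 0.389).

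Exons of 7 non-clustered members overlap those of other genes in GENCODE M21, on the opposite strand in all but Cdh12, and since the libraries do not mark strand such reads cannot be told apart. The overlap was 2235 of 10604 exon bases in Pcdh7, 436 of 4538 in Pcdh8, 224 of 3539 in Cdh9, 198 of 6305 in Cdh12, 154 of 15888 in Pcdh10, 57 of 10464 in Pcdh19 and 23 of 7740 in Cdh8, and 0 in Cdh23 and Pcdh15. Among Pcdhb rows, Pcdhb12 overlapped by 1927 bases on the opposite strand, and Pcdhb21 and Pcdhb22 shared 455 bases on the same strand.

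The clustered protocadherins lie side by side in arrays, where neurons choose among alternative first exons. Pcdha and Pcdhg genes splice onto shared last exons, whereas Pcdhb genes are single-exon genes of similar sequence. The Pcdha3 and Pcdha4 rows each share exons with 12 other Pcdha genes in GENCODE M21, and the Pcdhga9 row with 21 other Pcdhg genes. Which isoforms' reads the authors' counting placed in these rows is not given in the sources used here, so they are read as rows and not as isoforms.

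Summed over its rows, each array had a lower medial than lateral mean, by unlike amounts and with no test, since sums over members were given none. Pcdha rows summed to 19.4, 27.6 and 31.1 CPM in medial and 42.6 and 61.8 CPM in lateral libraries. Lateral sums were above all medial ones, and the log2 ratio of means was −1.0. The Pcdhg row, Pcdhga9, had 175, 230 and 272 CPM in medial and 302 and 397 CPM in lateral libraries. It was apart in the same direction, with a log2 ratio of −0.63. Pcdhb rows summed to 74.5, 112 and 104 CPM in medial and 104 and 120 CPM in lateral libraries. Only medial library 1 was clearly below the rest, and the log2 ratio was −0.21, or −0.06 without medial library 1.

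**Figure D4:**
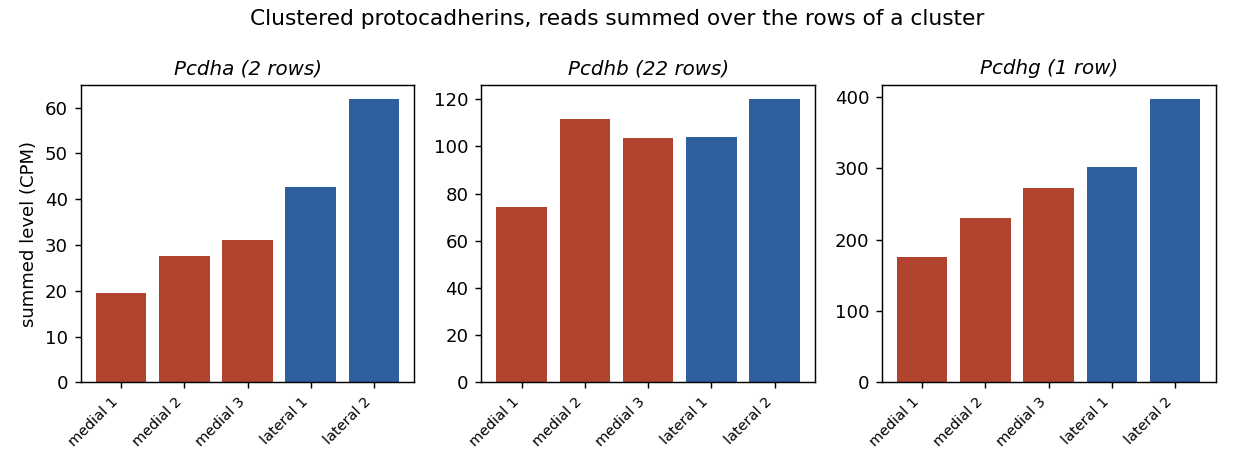
Summed level in CPM of the Pcdha, Pcdhb and Pcdhg rows, with a bar for each of 3 medial (red) and 2 lateral (blue) libraries. The Pcdha and Pcdhg sums of every medial library lie below those of both lateral ones, while the Pcdhb sums of medial libraries 2 and 3, at 112 and 104 CPM, lie beside the lateral sums of 104 and 120 CPM.

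Singly, Pcdha4 came closest to the threshold. It had 18.9, 26.3 and 30.0 CPM in medial and 41.1 and 59.9 CPM in lateral libraries, and its log2 fold change was −1.01 (SE 0.24, adjusted p = 0.0517). Without medial library 1 it passed, at −0.84. Pcdha3, at 0.520, 1.33 and 1.08 against 1.53 and 1.93 CPM, did not pass at −0.81 (SE 0.36, adjusted p = 0.181). Nor did Pcdhga9, at −0.63 (SE 0.21, adjusted p = 0.0971).

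The Pcdhb rows formed a narrow band. All 21 tested had negative log2 fold changes, from −0.44 (Pcdhb2) to −0.01 (Pcdhb18) with a median of −0.29, where 48.5% of all genes tested were negative; with library size alone as scaling, 18 of 21 were negative. Adjusted p-values ran from 0.258 to 0.972, and 0 had an unadjusted p under 0.05 in edgeR or passed in DESeq2. The groups did not overlap for 5 of 21 (23.8%), with lateral above in each. Of all genes tested, 53.3% did not overlap and 26.7% had lateral above. Medial library 1 was the lowest of the 5 libraries in 18 of the 21, as it was in 31.7% of all genes tested. Without it, 12 of 21 were negative and the median was −0.07, and without lateral library 2, 13 of 21 were negative. Its low neuronal marker sum, 923 CPM, stands beside this, and its part was not tested.

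**Figure D5:**
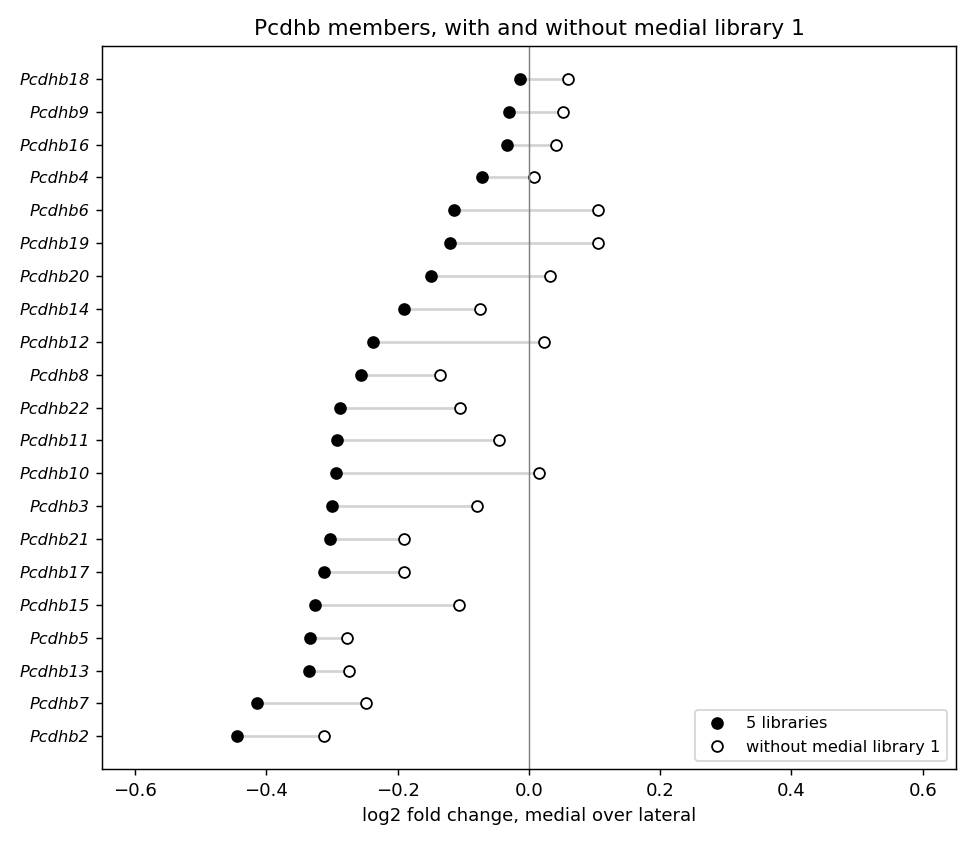
Log2 fold change, medial over lateral, of the 21 tested Pcdhb rows with all 5 libraries (filled) and without medial library 1 (open). Filled points run from −0.44 to −0.01, and without medial library 1 every row moves to the right and 12 of 21 remain negative.

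The leading Pcdhb rows held similar shares in all libraries, and some minor rows varied more. Pcdhb19 held 12.9%, 15.7% and 16.0% of Pcdhb reads in medial and 14.4% and 14.0% in lateral libraries, Pcdhb17 between 10.8% and 11.9% in medial and between 11.7% and 12.1% in lateral libraries, and Pcdhb16 between 9.10% and 12.2% against between 9.27% and 9.40%. The 4 leading rows, with Pcdhb7 as the last, made up between 43.1% and 44.6% of Pcdhb reads in every library. Pcdhb10 ran from 1.44% in medial library 1 to 2.78% in medial library 2, Pcdhb14 from 2.16% in medial library 2 to 3.81% in medial library 3 and Pcdhb12 from 0.838% in medial library 1 to 1.48% in medial library 3, and these 3 were named after their values were seen. Of the 22 shares, 20 overlapped between the groups. Pcdhb7 had the larger share in both lateral libraries (6.85%, 7.16% and 6.98% against 7.82% and 8.30%), and Pcdhb4, named after its values were seen, in all medial ones (3.87%, 3.19% and 3.19% against 3.09% and 3.03%). No difference of mean shares exceeded 1.40 percentage points, on 2147 to 3725 Pcdhb reads in medial and 6470 to 6839 in lateral libraries. Levels in CPM of Pcdhb19 (9.64, 17.6 and 16.6 against 14.9 and 16.9), Pcdhb17 (8.84, 12.1 and 11.3 against 12.2 and 14.6), Pcdhb16 (9.12, 12.1 and 9.42 against 9.77 and 11.1) and Pcdhb7 (5.10, 8.0 and 7.23 against 8.13 and 9.97) had log2 fold changes between −0.41 and −0.03. Pcdhb1 had at most 2 reads in any library and was not tested. Rows of similar sequence may exchange reads, so shares of single Pcdhb rows are uncertain.

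Among the intracellular partners of classical cadherins, 4 of 9 tested catenins and relatives passed, 1 higher and 3 lower in medial cortex, where 9.72% of all genes passed; the list's median log2 fold change was 0.02. The neuronal catenins Ctnna2 (70.5, 92.2 and 108 CPM in medial and 170 and 243 CPM in lateral libraries; log2 fold change −1.20, SE 0.22, adjusted p = 0.0354) and Ctnnd2 (77.3, 86.6 and 91.6 against 131 and 148 CPM; −0.71, SE 0.10, adjusted p = 0.0296) were lower, as was Jup, or plakoglobin, named after its value was seen (−0.58, SE 0.12, adjusted p = 0.0447). Pkp4, a relative of delta-catenin, was higher (0.38, SE 0.07, adjusted p = 0.0389). Of 14 tested genes from the wider superfamily, 3 passed: the giant cadherin Fat1 was higher in medial cortex (453, 379 and 373 against 232 and 187 CPM; log2 fold change 0.94, SE 0.14), and the axon-tract cadherin Celsr3 (−0.79, SE 0.10) and the synaptic Clstn3 (−0.76, SE 0.16) were lower.

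Among 15 junction partners 1 passed, the scaffold Tjp1, higher in medial cortex (log2 fold change 0.54, SE 0.12, adjusted p = 0.0449). Beside the counts of these lists, 9.72% of all genes tested passed in edgeR. Among 13 factors of clustered protocadherin chromatin, such as cohesin subunits, 0 passed in edgeR. There were 4 at an unadjusted p under 0.05, as were 32.2% of all genes tested, and 1 passed in DESeq2, as did 21.7%. Stag2 and Smc1a, the most abundant of these, had log2 fold changes of 0.17 and 0.05. Among 13 genes of the WAVE complex, which some protocadherins bind, and of signalling kinases and proteases, Cyfip2 (−1.05, SE 0.20, adjusted p = 0.0375) and Ptk2, the focal adhesion kinase (−0.42, SE 0.09, adjusted p = 0.0467), were lower in medial cortex. The medians of these 3 lists were 0.09, 0.14 and −0.13.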

How the data were processed

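Per the labels' protocols, RNA was extracted from dissected cortex with a column kit and sequenced as polyadenylated, unstranded libraries. The deposited files hold whole-number counts of reads per gene symbol, not normalised by the authors; per the submitters' processing notes BWA, STAR, HTSeq and mm9 were used, with no versions or roles. The 5 classes of reads without a gene made up between 23.1% and 28.7% of each file and entered neither library sizes nor tests.

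Counts were filtered with filterByExpr (10 and 15 reads), scaled with TMM and tested with edgeR 4.0.16 (R 4.3.3; quasi-likelihood test in its version 4 form, group as the only term, 3 residual degrees of freedom), which left 16229 genes. P-values were Benjamini-Hochberg adjusted over all of them; the threshold was 0.05. SE is the log2 fold change over the root of F. A run on simulated data checked only that fitted log2 fold changes followed those put in, not the rate of false calls. DESeq2 1.42.0, limma-voom (limma 3.58.1), other scalings and filters, thinning, blocks and leaving out each library were alternatives.

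The members, lists and alternatives were chosen with earlier results of these data known. Genes were named by a rule: members past the threshold, type I and delta members and Pcdh20 whatever their result, the 10 most abundant other non-clustered members and 4 of each cluster, filtered members reaching 10 reads, and up to 3 genes of each list. Other genes named, the subfamilies, per-length levels, motifs, the choice of printed promoters and the count of genes lowest in medial library 1 were chosen after values were seen. Likeness of genes across the 5 libraries was not computed because 5 libraries are too few. Coordinates and promoters are from RefSeq GRCm38.p6 (22 of 59 members had a promoter); exon lengths and overlaps are from GENCODE M21, in which all 59 symbols matched. One marker gene is not reported here.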

Additional observations from a re-analysis of the deposited data

How the results depend on the processing

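All 7 members that passed kept their direction under every alternative run, which reused the same libraries. Their groups did not overlap, so these runs could hardly turn a direction. With DESeq2 size factors, upper-quartile scaling, the older edgeR form, limma-voom and both other filters, between 7 and 9 members passed, against 7; with no filter 6 genes of the context lists passed, against 10. DESeq2 passed 3527 genes in all, 11 non-clustered members lower in medial cortex, 2 clustered members and 17 context genes. Library size alone passed 1 clustered member. Thinning to the smallest library passed 1 clustered member and 5 of the 7, without Cdh9 (adjusted p = 0.0532) and Pcdh8 (adjusted p = 0.0502). Leaving out each library in edgeR gave between 0 and 2163 genes in all, between 0 and 6 non-clustered members higher and between 0 and 8 lower, between 0 and 1 clustered members and between 0 and 11 context genes; in DESeq2, chosen after seeing the data, these ranges were 664 to 3108 (3041 without medial library 1), 2 to 6, 3 to 12 (9 without medial library 2, medial library 3 or lateral library 1), 0 to 2 and 5 to 15. The log2 ratios of the array sums then ranged from −1.25 to −0.71 for Pcdha, −0.33 to −0.06 for Pcdhb and −0.82 to −0.42 for Pcdhg.

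Nothing in the labels says that a replicate number marks a shared animal, and deviations of same-numbered libraries correlated at 0.03 and −0.38. A block by them, with medial library 3 dropped since a block of 1 library could not be fitted (chosen after seeing the data), passed 9 members in edgeR. In that fit 15 members and 4868 of 16275 genes had an unadjusted p under 0.05. The 9 held 2 clustered members and 4 of the 7, without Cdh9 (adjusted p = 0.111), Pcdh10 (adjusted p = 0.0772) and Pcdh8 (adjusted p = 0.0573). A tag in the deposited names pairs medial library 2 with lateral library 1 and medial library 3 with lateral library 2 (correlations 0.38 and 0.38). The deviations of the 2 lateral libraries are exact opposites, so the −0.38 and 0.38 of medial library 2 are the same value with its sign turned. These correlations are therefore not independent and cannot decide on a pairing. A block by the tag, with medial library 1 dropped, passed 5347 genes in all and 25 context genes. Among members it passed 8 non-clustered ones higher and 13 lower, and 2 clustered ones.

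Signs turned for log2 fold changes near 0. Library size alone turned Cdh24 (0.0023) and Pcdhb16 (0.039), the block by number Pcdh7 (−0.10), Cdh24 (0.018) and Pcdhb16 (0.014), and the block by tag Pcdhb19 (0.11) and Pcdhb16 (0.037). Over the fits that left out a library, Cdh2 ranged from −0.19 to 0.0058, Cdh7 from −0.052 to 0.22, Cdh11 from −0.69 to 0.067, Cdh20 from −0.23 to 0.047, Cdh24 from −0.15 to 0.016, Pcdh7 from −0.025 to 0.40, Pcdhb16 from −0.17 to 0.062, Pcdhb19 from −0.27 to 0.11 and Smc1a from −0.0085 to 0.10. The cause was not tested. Depth limits the members near the floor, such as Cdh18 with 10, 6 and 3 medial reads, and less so those at low levels above it, such as Cdh9 and Cdh23.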
